A study of Homo sapiens with 10 samples.

Results

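Box C/D small nucleolar RNAs (snoRNAs) were followed through 12 days of transforming growth factor β1 (TGFβ1) treatment in MCF10A, an established non-tumorigenic human mammary epithelial cell line. The set held every gene of the array table whose Entrez identifier is named SNORD followed by a number and whose mean over all 10 arrays exceeded 4 on the log2 scale. This gave 119 genes out of 221 SNORD rows and 23786 genes in all. The genes were thus selected on their mean level, so the levels are given as a description. The time of an array did not enter the choice, but 3 genes near the limit passed it only through the arrays on which they were high: SNORD70 and SNORD83A through the early arrays (early means 4.67 and 4.62, late means 3.82 and 3.80) and SNORD116-28 through the later ones (3.52 and 4.60). Their differences are given as a description, and counts over the 119 genes include them unless stated.

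The study treated MCF10A cells with 10 ng/mL TGFβ1, which drives epithelial-mesenchymal transition in this line, and profiled their total RNA on Affymetrix Human Gene 2.0 ST arrays. Untreated cells gave 1 array, and cells kept in TGFβ1 gave 1 array at each of 4 h, day 1, day 2, day 3, day 4, day 5, day 6, day 8 and day 12. The treatments were staggered so that the cells were harvested together after a serum-free interval, and all cells were MCF10A. No time point was repeated, so neighbouring times were compared as an early window (untreated, 4 h and day 1, n = 3), a middle window (days 2, 3 and 4, n = 3) and a late window (days 5, 6, 8 and 12, n = 4). Whether the RNA of an array came from 1 culture or was pooled from several is not given in the sources used here. The p-values therefore measure the spread between arrays of neighbouring times, not between repeated experiments, and what that spread holds is not known. In such bulk samples fewer cells that express a gene and less RNA per cell cannot be told apart.

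Box C/D snoRNAs are short nucleolar RNAs that pair with other RNAs, mostly ribosomal RNA, and guide ribose methylation at the paired site. They are bound by fibrillarin (FBL), the methyltransferase, together with NOP56, NOP58 and SNU13. A few, such as U3, U13, U14 and U22, act in the cleavage, folding or acetylation of precursor ribosomal RNA. In human cells most are cut from the introns of host genes, many of which encode ribosomal proteins or are non-coding small nucleolar RNA host genes (SNHG genes). The tandem SNORD115 and SNORD116 copies lie in the imprinted SNHG14 transcript and have no established ribosomal RNA target.

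Of the 119 genes, 115 lay within 59 annotated host genes, and SNORD3C, SNORD3D, SNORD13 and SNORD32B lay in none. Ribosomal protein genes hosted 31 of them in 15 hosts, other protein-coding genes 44 in 32 hosts, SNHG and other non-coding genes 31 in 11 hosts, and SNHG14 hosted 9. Just above the limit of 4 were SNORD83A (mean 4.06), SNORD70 (4.07) and SNORD116-28 (4.21), and just below it SNORD56B (4.00 after rounding), SNORD114-27 (3.95) and SNORD91A (3.95). Only 9 of 18 SNORD116 rows passed, and none of 25 SNORD115 rows did. The SNORD115 means lay between 0.64 and 2.48, and the highest single SNORD115 value was 2.99. None of the 40 rows of the imprinted SNORD113 and SNORD114 clusters passed either, with means between 0.70 and 3.95. The median late minus early difference was -0.10 for the SNORD115 rows and -0.11 for the SNORD113 and SNORD114 rows. Outside these clusters and SNORD116, 28 rows lay at or below 4. They had a median difference of -0.58, and 26 of them were lower late, against 59.3% of all genes. Of those 28 rows, 12 reached a limma adjusted p of 0.05 in the lower direction, against 7.12% of all genes.

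The label of the cells was checked against marker genes. The epithelial genes KRT5, CDH1 and EPCAM had means of 10.49, 9.74 and 7.50, though KRT17 had a mean of 2.57. The leukocyte markers PTPRC and CD3E had means of 1.03 and 1.35, and the endothelial markers PECAM1, CDH5 and VWF between 1.67 and 1.79. Of the fibroblast markers, DCN rose by 2.92 log2 late minus early (limma adjusted p = 0.00026), COL1A1 had a difference of 0.61 (adjusted p = 0.228) and PDGFRB a mean of 1.46, and their part in the snoRNA results was not tested. The untreated array correlated least with the others (mean r 0.960, against 0.973 to 0.983 for the other 9 arrays), so the main late minus early counts are also given without it.

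Most box C/D snoRNAs were lower late than early. The late minus early difference was below 0 for 115 of 119 genes, against 59.3% of all 23786 genes and 50.3% of the 8929 genes with a mean above 4. The median difference was -0.51 log2 over the 119 genes, -0.06 over all genes and -0.00 over genes with a mean above 4. A gene was called when its adjusted p (limma, Benjamini-Hochberg over all genes) was at most 0.05 and its difference at least 1 log2. By this rule 11 snoRNA genes were lower, against 1.64% of all genes called lower, and 1 was higher, against 2.92% called higher. Of genes with a mean above 4, 3.07% were called lower and 5.76% higher. By adjusted p alone 63 of the 119 were lower (52.9%), against 7.12% of all genes and 13.1% of genes with a mean above 4, and 1 was higher, against 8% of all genes. The 1 higher gene is SNORD116-28, which had to differ to pass the level limit. Among the 116 genes whose mean exceeded 4 in every window, 11 were called lower and 61 were lower by limma adjusted p, with 0 higher. All late arrays lay below all early arrays for 77 of the 119 (64.7%), against 13.1% of all genes and 18.4% of genes with a mean above 4.

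Without the untreated array, 59 of the 119 were still lower by adjusted p (limma) against 5.69% of all genes, and the median difference was -0.53, with 113 of the 119 below 0 against 56.5% of all genes. All late arrays then lay below the 4 h and day 1 arrays for 98 genes, against 18% of all genes and 24.9% of genes with a mean above 4. The called count then dropped from 11 to 6, all 6 among the 11, against 1.37% of all genes, and the higher call was lost. Of genes with a mean above 4, 2.61% were then called lower and 11.2% were lower by adjusted p. Without the day 6 array 8 were called lower, against 1.49% of all genes, and 45 were lower by adjusted p, against 5.21%. For genes with a mean above 4 these shares were 2.74% and 10%.

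**Figure D1:**
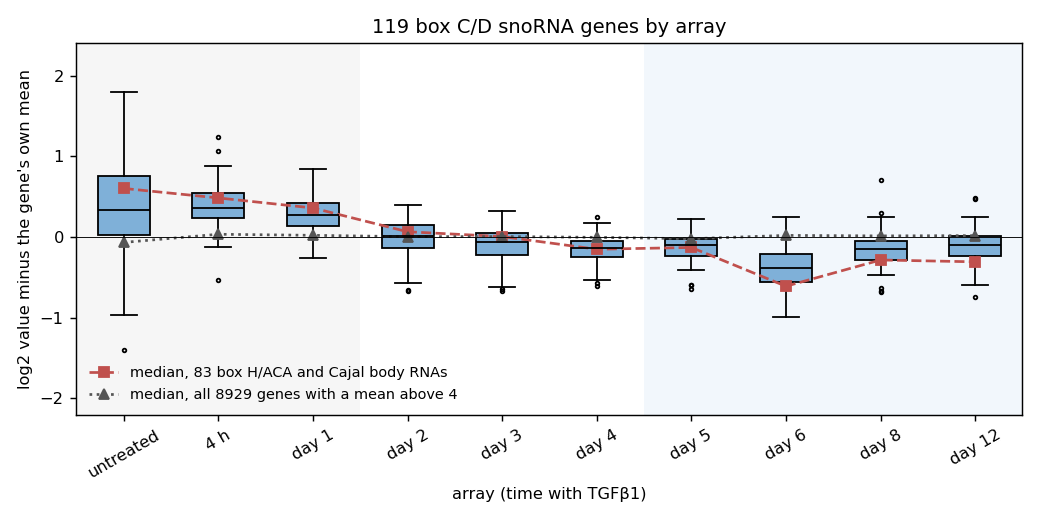
Log2 value of each of the 119 box C/D snoRNA genes minus that gene's mean over the 10 arrays, by time with TGFβ1 (boxes: quartiles and median; whiskers: 1.5 times the box height; dots: values beyond). Grey shading marks the early and blue the late window, and the medians of the snoRNA genes pass from 0.34, 0.36 and 0.27 on the early arrays to -0.38 on day 6, while the median of the 8929 genes with a mean above 4 stays between -0.07 and 0.03.

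The fall was placed mainly between day 1 and day 4. The median deviation of the 119 genes from their own means was 0.34 in untreated cells, 0.36 at 4 h and 0.27 on day 1. It was 0.01 on day 2, -0.06 on day 3 and -0.13 on day 4. It was -0.10 on day 5, -0.38 on day 6, -0.15 on day 8 and -0.10 on day 12. The early arrays were thus all higher than the others, and day 6 was the lowest. Day 6 held the lowest of 10 values for 69 of the 119 genes (58.0%), against 9.86% of genes with a mean above 4. Untreated cells held the highest value for 58 genes, 4 h for 33 and day 1 for 24, against 19.5%, 16.6% and 9.23% of genes with a mean above 4.

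Between the middle and early windows 5 genes were called lower, against 1.02% of all genes, and none was called higher, against 1.78%. These were SNORD14B (-1.21 ± 0.29, SE), SNORD1A (-1.19 ± 0.18), SNORD4B (-1.17 ± 0.23), SNORD49A (-1.04 ± 0.14) and SNORD79 (-1.03 ± 0.23), with limma adjusted p between 0.0022 and 0.0282. By adjusted p alone 25 were lower, against 3.59% of all genes, and the median difference was -0.41. Of genes with a mean above 4, 1.79% were called lower and 7.11% were lower by adjusted p. This count of 5 rests on single arrays, as it was 1 without the untreated array, 13 without day 1, 3 without day 2 and 2 without day 4.

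Between the late and middle windows no snoRNA gene passed limma's adjusted p of 0.05, where 0.0715% of all genes were called lower and 0.303% higher. At an unadjusted p under 0.05 there were 19, all lower, against 9.78% of all genes in either direction. The median difference was -0.13. Regressed on time and its square, 33 genes were called lower and 1, SNORD116-28, higher, against 3.44% and 5.21% of all genes. SNORD116-28 had to differ to pass the level limit, so its call is a description. The count over genes whose mean exceeded 4 in every window is given among the alternatives below. Of genes with a mean above 4, 6.32% were called lower and 9.88% higher. A call also needed the curve to reach an R2 of 0.6 and some array to lie 1 log2 or more from the untreated one. The regression count of 34 was 21 without 4 h and 21 without day 6. Without the untreated array it was 28, with the change of 1 log2 taken from the 4 h array instead.

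The largest late minus early difference belonged to SNORD1A, a guide of large-subunit ribosomal RNA methylation in an intron of SNHG16 on chromosome 17. Its log2 values were 5.91 in untreated cells, 6.05 at 4 h and 5.35 on day 1. They were 4.78, 4.49 and 4.46 on days 2, 3 and 4, and 4.49, 4.16, 4.13 and 4.21 on days 5, 6, 8 and 12. All 7 arrays from day 2 on lay below the 3 early ones, and the difference was -1.52 ± 0.17 (SE; limma adjusted p = 0.000199).

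SNORD14B, a copy of U14 in RPS13 on chromosome 11, acts in small-subunit ribosomal RNA processing and methylation. It read 8.73, 7.54 and 7.35 on the early arrays, 6.80, 6.76 and 6.42 on the middle arrays and 6.56, 6.12, 6.47 and 6.57 on the late arrays. The untreated array stood more than 1 log2 above every other. The late minus early difference was -1.44 ± 0.28 (SE; limma adjusted p = 0.00451) with that array and -1.02 (adjusted p = 0.00292) without it.

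SNORD104, a large-subunit methylation guide in SNHG25 on chromosome 17, read 7.74, 7.10 and 6.81 on the early arrays. It read 6.42, 6.18 and 6.25 on the middle arrays and 6.12, 5.55, 5.69 and 5.78 on the late arrays. The windows did not overlap, and the late minus early difference was -1.43 ± 0.20 (SE; limma adjusted p = 0.000799).

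SNORD51, in the translation elongation factor gene EEF1B2, is a large-subunit methylation guide and had close values on the 3 early arrays. It read 6.98, 7.14 and 6.90 early, 6.18, 6.32 and 6.00 in the middle window, and 5.73, 5.77, 6.01 and 6.19 late. The late minus early difference was -1.08 ± 0.14 (SE; limma adjusted p = 0.000477), and -1.10 without the untreated array.

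SNORD49A, in SNHG29, read 5.66, 5.60 and 5.34 early, 4.50, 4.69 and 4.29 in the middle window, and 4.43, 4.54, 4.48 and 4.63 late. The middle and late arrays overlapped and all lay below the early ones, and the late minus early difference was -1.01 ± 0.13 (SE; limma adjusted p = 0.000437). It fell short of 1 log2 without the untreated (-0.95), 4 h (-0.98), day 5 (-0.98) or, before rounding, day 8 array, at adjusted p of 0.003 or less each. SNORD92, in WDR43, a ribosome biogenesis gene, read 6.38, 6.50 and 6.56 early, 6.13, 6.10 and 5.95 in the middle window, and 5.84, 5.14, 5.32 and 5.55 late. Its late minus early difference was -1.02 ± 0.16 (SE; limma adjusted p = 0.00127), and its middle minus early difference of -0.42 did not pass (adjusted p = 0.163). The late minus early difference was under 1 log2 in size without day 1 (-0.98), day 6 (-0.91) or day 8 (-0.97).

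For SNORD126, SNORD4B, SNORD80 and SNORD102 the untreated array was the highest of 10. SNORD126, in CCNB1IP1, read 6.61 in untreated cells and 5.29 and 5.34 at 4 h and day 1, and its 4 late arrays lay between 4.42 and 4.65. SNORD80, a large-subunit methylation guide in GAS5, read 9.83, 8.85 and 8.52 on the early arrays, and its 4 late arrays lay between 7.98 and 8.06. Late minus early, SNORD126, SNORD4B and SNORD80 had differences of -1.19, -1.14 and -1.04 and SNORD102 fell by 1.00. Without the untreated array the 4 differences lay between -0.90 and -0.66, and that of SNORD102 no longer passed (limma adjusted p = 0.056). SNORD102 was also short of 1 log2 without the 4 h (-0.99) or day 6 array (-0.81).

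SNORD111, in the splicing factor gene SF3B3, went the other way within the early window. It read 6.23 in untreated cells, 7.18 at 4 h and 6.96 on day 1, then 6.34, 5.99 and 5.75, and 5.52, 5.12, 5.84 and 6.21 late. The highest late value, on day 12, lay just under the lowest early value, in untreated cells. The late minus early difference was -1.12 ± 0.27 (SE; limma adjusted p = 0.0171), and -1.40 (adjusted p = 0.00633) without the untreated array. The call was lost without the 4 h array (-0.92; adjusted p = 0.072) and without day 6 (-0.93; adjusted p = 0.0447).

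**Figure D2:**
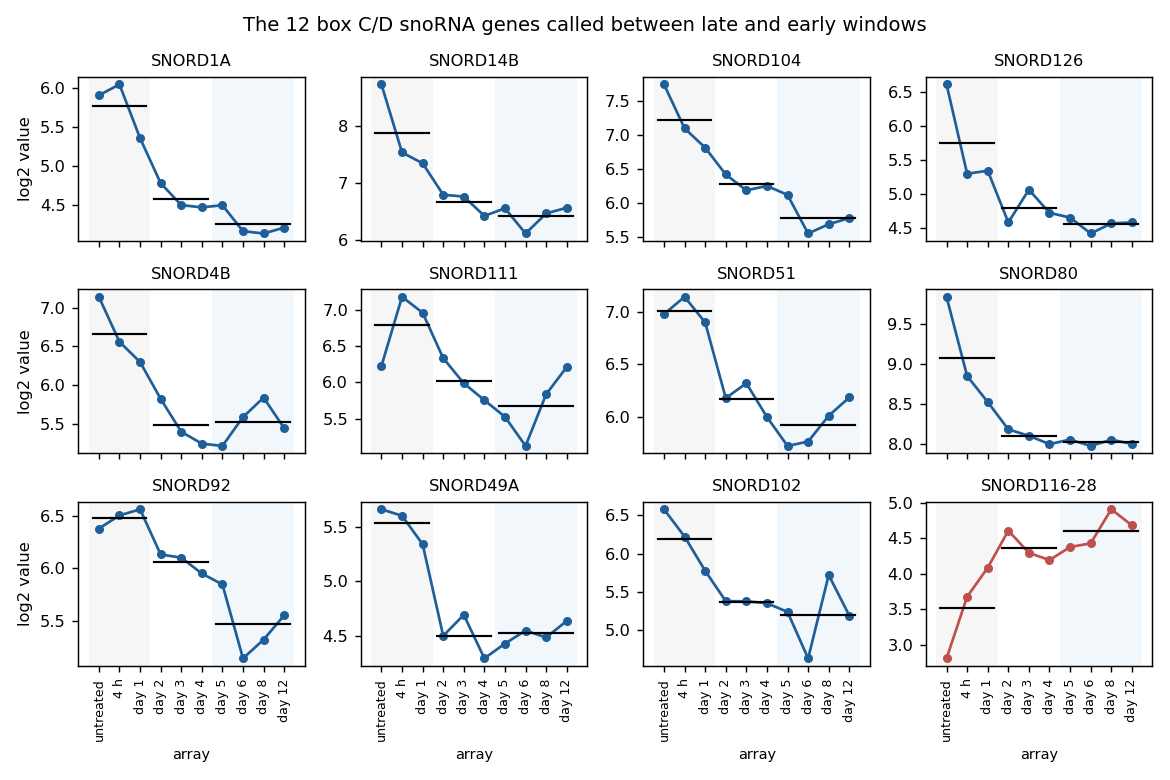
Log2 value by array for the 12 snoRNA genes called late minus early, each panel with its own axis range; black bars are window means, grey shading the early and blue shading the late window. The 11 genes in blue were lower late, by 1.00 to 1.52 log2, and SNORD116-28 in red, which passed the level limit only through its later arrays, was higher by 1.08 log2.

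The SNORD116 copies were mostly highest in untreated cells. In 8 of the 9 SNORD116 genes the untreated array was the highest of 10, and the median excess of untreated cells over the mean of 4 h and day 1 was 0.76 log2, against 0.07 over all 119 genes. SNORD116-14 read 9.79 in untreated cells, 8.96 at 4 h and 8.85 on day 1. It then read 8.67, 8.64 and 8.56 on days 2 to 4 and 8.74, 8.65, 8.64 and 8.75 on days 5 to 12, a range narrower than its early window. Its late minus early difference was -0.51 ± 0.19 (SE) and did not pass (limma adjusted p = 0.0972), and without the untreated array it was -0.21 (adjusted p = 0.259).

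The median late minus early difference of the 9 SNORD116 genes was -0.25 with the untreated array and -0.05 without it. By limma adjusted p alone 1 of the 9, SNORD116-29, was lower (-0.58 ± 0.18, SE; adjusted p = 0.0434, and 0.104 without the untreated array). In the median, most of the lowering of the SNORD116 genes thus lay between the single untreated array and the arrays with TGFβ1. That is a difference that 1 array cannot test. Without the untreated array 5 of the 9 were still lower late, the lowest difference being -0.33, and none of these passed by limma adjusted p.

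SNORD116-28 ran the other way, but its early mean of 3.52 is under the level limit, so it is in the set only through the arrays on which it was high. It read 2.81 in untreated cells, 3.68 at 4 h and 4.09 on day 1, then 4.61, 4.30 and 4.19, and 4.38, 4.43, 4.91 and 4.68 late. The late arrays all lay above the early ones, the only one of the 119 genes for which this held, against 10.8% of all genes. The difference was 1.08 ± 0.26 (SE), 0.72 without the untreated array and 0.97 without day 8, and is given as a description with no test. SNORD116 copies are close in sequence, so values of single copies can hold signal from the others and are uncertain, as are those of the U3 and U14 copies.

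**Figure D3:**
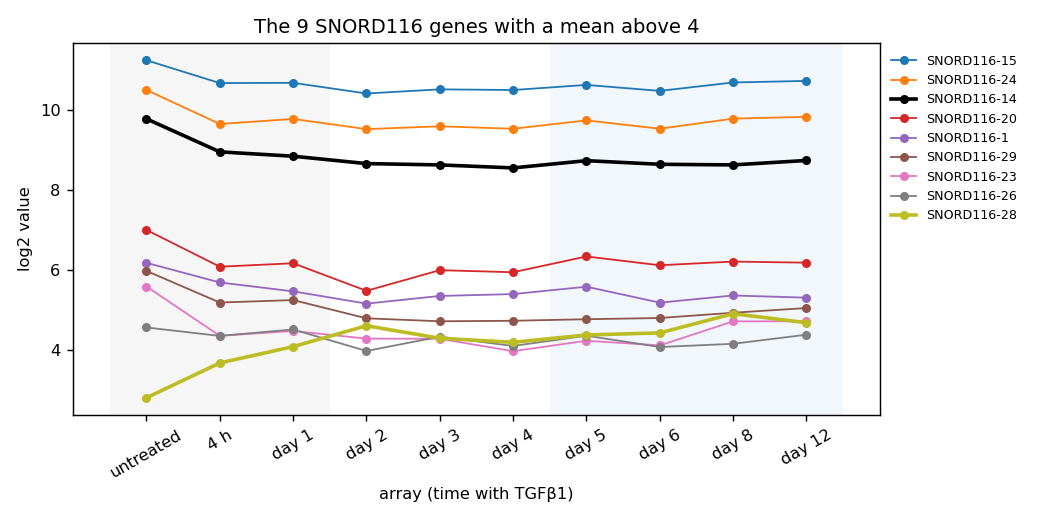
Log2 value by array for the 9 SNORD116 genes with a mean above 4, with SNORD116-14 in black; grey shading marks the early and blue the late window. In 8 genes the untreated array is the highest, as in SNORD116-14 (9.79 against 8.56 to 8.96 on the other arrays), while SNORD116-28 starts at 2.81 and reads 4.38 to 4.91 late.

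By host class, the median late minus early difference was -0.64 for the 31 snoRNA genes in ribosomal protein genes, -0.62 for the 31 in SNHG and other non-coding hosts and -0.49 for the 44 in other protein-coding hosts. By limma adjusted p alone 19, 18 and 24 of these were lower, and none was higher. The 4 genes with no host had a median of -0.15, and SNORD3C, a gene of the U3 family, was the only one of these to pass (-0.59 ± 0.18, SE; adjusted p = 0.0484, and 0.171 without the untreated array). SNORD13, the U13 RNA of small-subunit acetylation, read between 11.93 and 12.09 on all arrays. That is close to the highest value of any gene on an array (11.95 to 12.18), where a change would be compressed. The 18 snoRNA genes with means above 10 had a median difference of -0.33, against -0.57, -0.65 and -0.50 for those with means of 4 to 6, 6 to 8 and 8 to 10. Over all 67 genes with means above 10, these 18 included, the median was -0.21. Over all genes of the lower levels the medians lay between -0.01 and 0.00.

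Within single hosts the snoRNAs did not move by equal amounts. In GAS5, which hosts 8 of the genes, all 8 differences were below 0, from -1.04 for SNORD80 to -0.21 for SNORD76, and 4 passed by limma adjusted p. In SNHG1, which hosts 7, they ran from -0.85 to -0.12, and again 4 passed. One of these 4 was SNORD22, the U22 RNA that frogs need for small-subunit ribosomal RNA processing, at -0.75 ± 0.15 (SE; limma adjusted p = 0.00707).

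RPS13 hosts both SNORD14B (-1.44) and its near copy SNORD14A (-0.66 ± 0.18, SE; limma adjusted p = 0.0279). SNORD14A read 6.58 in untreated cells and 7.28 and 7.05 at 4 h and day 1, so the copies ran opposite ways between untreated cells and 4 h. SNHG16 hosts SNORD1A (-1.52) and SNORD1C, whose difference of -0.48 ± 0.15 did not pass (limma adjusted p = 0.0541). Differences between snoRNAs of 1 host were not tested. NOP56 hosts 3 of the genes and encodes a core protein of the same particle. SNORD57, one of them, fell by 0.94 ± 0.13 log2 (SE; limma adjusted p = 0.000615), and SNORD56 by 0.99 ± 0.21 (adjusted p = 0.00775).

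**Figure D4:**
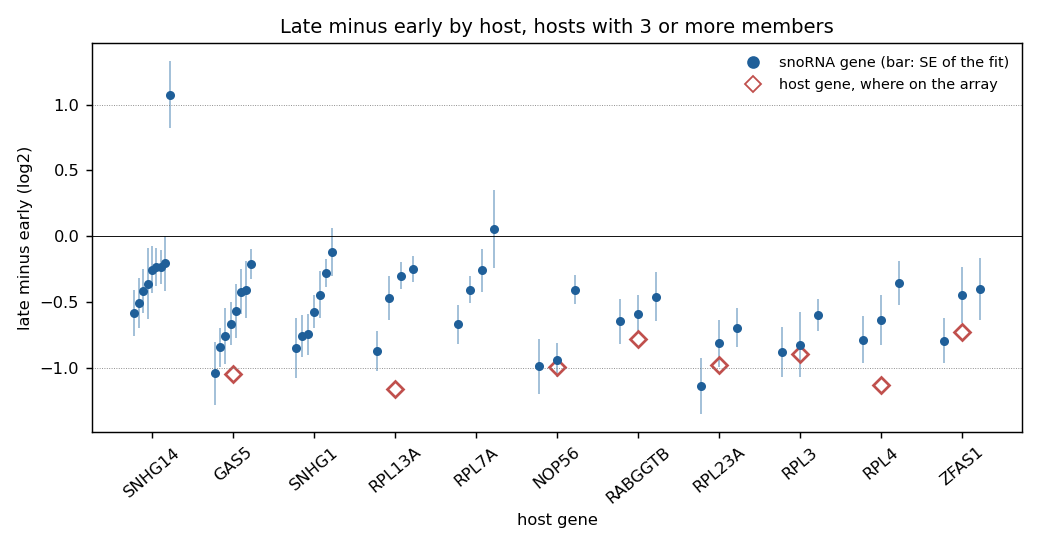
Late minus early log2 difference of each snoRNA gene (blue points; bars are the SE of the limma fit) for the 11 hosts with 3 or more of the 119 genes, and of the host gene where the array table held it (red diamonds). In GAS5 the 8 snoRNA genes span -1.04 to -0.21 and the host is at -1.05, and in SNHG14 the one gene above 0 is SNORD116-28 at 1.08.

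The array table held 50 of the 59 hosts, which carry 88 of the snoRNA genes. Of these hosts 42 were lower late, against 59.3% of all genes, with a median difference of -0.61. By the same rule 8 were called lower, against 1.64%, and none higher, against 2.92%. Of genes with a mean above 4, 50.3% were lower late, 3.07% were called lower and 13.1% were lower by adjusted p. Without the untreated array 44 were lower late, against 56.5% of all genes, with a median of -0.64. Then 8 were called lower, against 1.37%, and 25 were lower by limma adjusted p, against 5.69%. With all arrays 29 were lower by limma adjusted p alone, against 7.12% of all genes, and 1, CKAP5, was higher (0.58 ± 0.11, SE; adjusted p = 0.00419). Its snoRNA SNORD67 had a difference of -0.18 (adjusted p = 0.404). GAS5 itself read 9.23, 8.68 and 8.29 early, 7.19, 7.38 and 7.85 in the middle window, and 8.06, 7.82, 7.53 and 7.33 late, a difference of -1.05 ± 0.24 (SE; limma adjusted p = 0.0123), and -0.80 (adjusted p = 0.0469) without the untreated array, under the limit of 1 log2.

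SnoRNAs and hosts did not move by equal amounts, though no difference between them was tested. In ribosomal protein hosts the hosts had a median difference of -1.08 and their snoRNAs -0.64, and 20 of 23 snoRNAs had a difference above that of their host. In other protein-coding hosts the order was the reverse, with a median of -0.24 for the hosts and -0.50 for the snoRNAs, and 16 of 42 snoRNAs had a difference above that of their host. In SNHG and other non-coding hosts the medians were -0.74 for the hosts and -0.62 for the snoRNAs, and 16 of 23 snoRNAs had a difference above that of their host. CHD8, a chromatin remodeller, had a difference of 0.24 (adjusted p = 0.241), while its snoRNA SNORD8 fell by 0.74 ± 0.16 (adjusted p = 0.00756). Over the 88 pairs, many of which share a host and all of which share the arrays, Pearson's r was 0.33 and Spearman's rho 0.26. Some host rows read low, such as RPL13A with a mean of 1.68, and hold little signal.

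**Figure D5:**
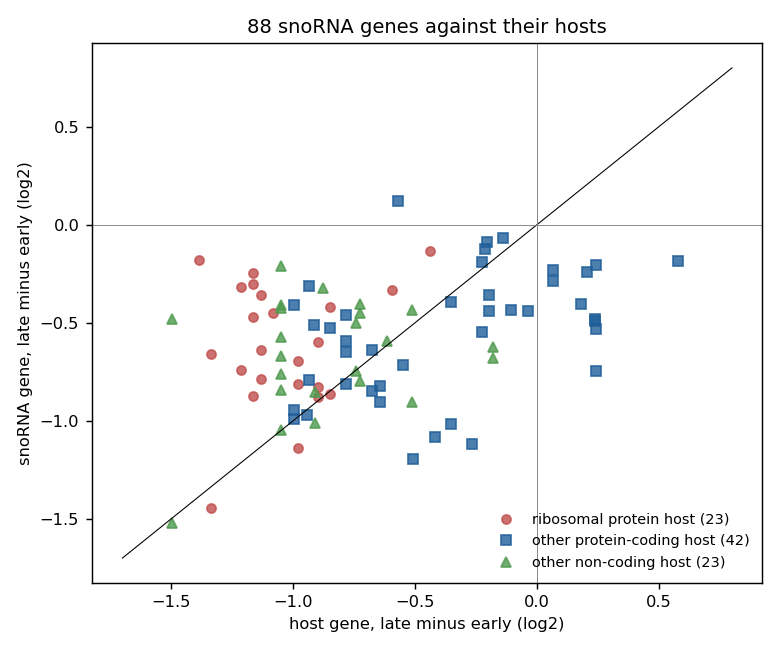
Late minus early log2 difference of 88 snoRNA genes against that of their host gene, by host class, with the line of equal difference. Points of ribosomal protein hosts (red) lie mostly above the line (20 of 23), and those of other protein-coding hosts (blue) mostly below it.

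Many ribosomal protein and SNHG transcripts begin with a run of pyrimidines, the 5′ terminal oligopyrimidine motif, which ties their translation to growth signals. To show which hosts have such a start, a run was counted only where the annotated first base is a C. At least 4 bases that are each C or T had to follow it, on the gene's strand. The run was found in 18 of 48 hosts with a promoter sequence in RefSeq (37.5%), in 7 of 10 ribosomal protein hosts, and at 5.14% of 27305 genes. The windows below come from RefSeq on GRCh38.p14, run from 10 bases before the annotated start to the 15th base from it, and carry the run in capitals. The first 5 hosts have the run at the annotated start and the last 4 do not. Stretches of C or T elsewhere in the SNHG16 and SNHG14 windows were not counted.
RPS13 (chr11:17077653-17077677, minus strand): ctctcgctctCCTTTCgttgcctga
RPL21 (chr13:27251548-27251572, plus strand): ccgcctctttCCTTTCggccggaac
RPL13A (chr19:49487598-49487622, plus strand): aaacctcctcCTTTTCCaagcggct
CCNB1IP1 (chr14:20333265-20333289, minus strand): tctccactttCTTTCCCTCTCCgtt
SNHG32 (chr6:31834906-31834930, plus strand): cattttagttCTTTTTgcgaagtgg
SNHG16 (chr17:76557754-76557778, plus strand): gggcggtctcgcgttcttttcgagg
NOP56 (chr20:2652622-2652646, plus strand): cgctagccgcattgcgagccgaacc
GAS5 (chr1:173869031-173869055, minus strand): tcatgaattcagatgtgtttatttt
SNHG14 (chr15:24823598-24823622, plus strand): gtcctcctgcgccgacctcgaatgc
The 34 snoRNA genes whose host has the run and the 64 whose host lacks it had nearly the same median late minus early difference, -0.49 and -0.48. SNORD14B (RPS13) and SNORD126 (CCNB1IP1) stand among the first, and SNORD1A (SNHG16) and SNORD80 (GAS5) among the second. A host whose RNA starts at a base other than the annotated one may stand in the wrong group. The medians therefore cannot show whether the motif made a difference, which was not tested.

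The core proteins of the box C/D particle were lower late as well. FBL read 6.22, 5.79 and 5.45 early, 4.70, 4.72 and 4.38 in the middle window, and 4.69, 4.73, 5.11 and 4.62 late. All later arrays lay below the early ones, and the difference was -1.03 ± 0.19 (SE; limma adjusted p = 0.00326). NOP56 fell by 1.00 ± 0.19, just short of the limit before rounding (limma adjusted p = 0.0039). SNU13 (-0.81 ± 0.13; adjusted p = 0.00141) and NOP58 (-0.68 ± 0.16; adjusted p = 0.0166) were lower by limma adjusted p too, which makes 4 of 4 lower with 1 called. Without the untreated array none was called, and NOP58 no longer passed (adjusted p = 0.063).

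Of 9 assembly factors none was called, and RUVBL1 and NOPCHAP1 were lower by limma adjusted p (-0.79 and -0.74; adjusted p = 0.0211 and 0.00599). Of 9 proteins of the U3 particle and its partners, RCL1 was called (-1.11 ± 0.15, SE; adjusted p = 0.000545), and 3, RCL1 included, were lower by adjusted p. Of 14 genes of snoRNA trimming, debranching and turnover none was called, and EXOSC5 and EXOSC7 of the exosome were lower by adjusted p (-0.98 and -0.51; adjusted p = 0.00803 and 0.0264). Against 7.12% of all genes and 13.1% of genes with a mean above 4 lower by adjusted p, these counts in short lists are no result about the lists.

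At 4 h, the first time with TGFβ1, the 119 genes had no common direction. The median 4 h minus untreated difference was -0.00, with 4 genes at least 1 log2 higher and 3 at least 1 log2 lower, against 2.21% and 1.39% of all genes. SNORD36B (3.92 to 5.28), SNORD37 (3.39 to 4.57), SNORD91B (6.21 to 7.36) and SNORD54 (5.38 to 6.40) were higher, and SNORD126, SNORD116-23 and SNORD14B lower. These are differences of 2 single arrays with no test. Against the mean of untreated cells and day 1 none of the 119 reached 1 log2.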

How the data were processed

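RNA of MCF10A cells was isolated with silica columns (RNeasy), whose recovery of RNAs as short as snoRNAs was not measured here, and hybridised to Affymetrix Human Gene 2.0 ST arrays. The log2 values deposited by the authors were RMA-normalised (affy 1.36.1 in R 2.15.1) with an Entrez Gene probeset mapping (17.0.0), 1 value per gene and array. Quantile normalisation sets each array to the same distribution, so changes are relative to all other genes, and a probeset can read mature snoRNA and unspliced host RNA alike. The number of arrays, 10 with none repeated, limits the precision.

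Symbols came from RefSeq, by Entrez identifier, for 23093 of 23786 rows. A host was the smallest annotated gene of RefSeq GRCh38.p14 that contained the snoRNA, readthrough genes skipped. The table gave no usable strand for the snoRNAs, so strand was not required, against the plan. No genome coordinates of snoRNAs are given, as the build of the array mapping is not given in the sources used here.

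A mean per window was fitted over all 23786 genes with limma 3.58.1 (R 4.3.3; lmFit, eBayes), with Benjamini-Hochberg adjustment over all genes. The study's regression on time was rebuilt in limma with time and its square, since its package was not used here. Both fits were tested on simulated data. Alternatives changed the scaling, the limits, the variance model, the windows and the arrays used.

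Named genes were the called snoRNAs (up to the 15 largest late minus early differences), the 6 largest and 6 smallest differences, the 5 highest means, the 3 rows on each side of the limit, the SNORD116 genes, up to 4 genes of the hosts with most members, their hosts and the core proteins. Genes named beyond this were chosen after their values were seen. The members and gene lists were chosen with earlier results of these data known. Some items are not reported here.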

Additional observations from a re-analysis of the deposited data

Results flagged for a closer look

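Within the 4 late arrays, 1 array stood apart from the other 3 by Dixon's test in 5 of 61 results tested, and chance alone gives about 1 in 20. In all 5 it was the day 6 array, and it was low. SNORD100 in RPS12 read 11.21 on day 6 against 11.58 to 11.61 on days 5, 8 and 12, and SNORD95 in RACK1 read 11.62 against 11.88 to 11.91. SNORD35A and SNORD34, both in RPL13A, read 7.76 against 8.28 to 8.32 and 7.67 against 8.04 to 8.09. SNORD56B, just under the level limit, read 2.84 against 3.87 to 4.03. The box H/ACA and small Cajal body RNAs were low on the same array, with a median deviation of -0.61 from their own means, while genes with a mean above 4 had one of 0.02. The part of RNA recovery or hybridisation of this array in these values was not tested.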

How the results depend on the processing

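The direction of the late minus early median over the 119 genes held under each alternative run, between -0.55 and -0.45 when single arrays were left out. Counts of called genes moved more. Late minus early, 12 genes were called with all arrays and 6 to 16 with single arrays left out (6 without the untreated array), 64 with no limit on the difference and 1 at 1.5 log2. Middle minus early, 5 were called and 1 to 13 with single arrays left out, 25 with no limit, 0 at 1.5 log2 and 3 when membership needed a mean above 5. Over time, 34 were called and 21 to 34 with single arrays left out, 14 at 1.5 log2 and 4 with a linear term in days alone. At 4 h, 7 genes differed from untreated cells by 1 log2, 0 by 1.5 log2 and 0 against the mean of untreated cells and day 1. An alternative added after seeing the data, without the untreated and day 6 arrays, called 4 late minus early and 2 middle minus early. Late minus middle, 0 were called under every alternative run. The causes were not tested. Of 720 alternatives for single named results, 670 kept direction and side of the threshold, 29 lost the threshold, 11 gained it and 10 changed sign. The 10 belong to 4 genes not called in any fit. With single arrays left out, SNORD36B ran from -0.40 to 0.29, SNORD37 from -0.28 to 0.33, SNORD114-27 from -0.60 to 0.061 and SNORD97 from -0.26 to 0.029. Without the untreated and day 6 arrays SNORD36B, SNORD37 and SNORD114-27 had differences of -0.26, -0.13 and 0.16. Membership that needed every window mean above 4, also added after seeing the data, called 11 late minus early, 5 middle minus early and 32 over time. No paired analysis was possible because each time point has 1 array. With 1 array a time, a difference between neighbouring times cannot be told apart from a difference between arrays. Signals near the arrays' highest values limit what can be seen for the brightest snoRNAs.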

Other observations

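The other large snoRNA class, the box H/ACA RNAs that guide pseudouridylation, together with the small Cajal body RNAs, was also lower late. Of 83 such genes with a mean above 4, 81 had a late minus early difference below 0, with a median of -0.85. By limma (adjusted p at most 0.05 over all genes and at least 1 log2) 29 were called lower and none higher, against 1.64% and 2.92% of all genes, and 66 were lower by adjusted p alone. Of genes with a mean above 4, 3.07% were called lower and 13.1% were lower by adjusted p alone. Without the untreated array 22 were called lower. SNORA74A read 8.61, 7.51 and 6.80 on the early arrays and 6.03, 5.64, 6.05 and 6.07 on the late arrays, and SNORA5A read 4.84, 5.35 and 5.04 early and 3.40, 3.63, 3.70 and 3.30 late. Neither gene's windows overlapped, and both were chosen after their values were seen. Of 5 proteins listed for this class, the core proteins and the assembly factor NAF1, 2 were called lower. These were DKC1, the pseudouridine synthase, and NAF1 (-1.17 ± 0.17 and -1.04 ± 0.19, SE, limma adjusted p = 0.000972 and 0.0033). Without the untreated array DKC1 was still called (-1.03) and NAF1 was not (-0.77). Whether the 2 snoRNA classes differ in the size of the fall was not tested.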
